A study of Mus musculus with 6 samples.

Results

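The clustered canonical histone genes are the multicopy genes for the core histones H2A, H2B, H3 and H4. They were taken as the protein-coding genes of the mouse RefSeq table whose symbol is H2ac, H2bc, H3c or H4c followed by a number, which gave 57 of 21887 protein-coding genes. Of these, 17 encode H2A, 16 H2B, 12 H3 and 12 H4. The study compared sperm from the epididymis and vas deferens of mice with the K49A substitution in protamine 1 (2 libraries, K49A 1 and 2) with sperm of wild-type C57BL6 mice (4 libraries, WT 1 to 4), by sequencing the nucleosome-sized DNA that survives digestion with micrococcal nuclease (MNase). No source used here gives the background strain of the mutant, the ages of the mice or the number of animals behind a library. All libraries went through the same DNase I pretreatment, decondensation with a reducing agent and MNase digestion, per the labels' protocols. The data are lists of enriched regions (broad peaks), 1 list per library, so they hold no measure of gene expression against which the labelled cell type could be checked.

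Core histones form the octamer around which DNA is wrapped in a nucleosome. Their canonical genes are small, lie in tandem clusters, often as divergent H2A and H2B pairs with a shared promoter, and are transcribed mainly when a cell copies its DNA. Their transcripts end in a stem-loop in place of a poly(A) tail. Sperm precursors stop dividing, replace most histones by testis variants, transition proteins and then protamines, and leave a minority of nucleosomes in place. The variants TH2A and TH2B, made in male germ cells, are encoded by a divergent pair in the same cluster, H2ac1 and H2bc1.

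The genes lay in 3 groups when a gap of at least 500 kb was taken as a border (coordinates are mm10/GRCm38). A block on chromosome 13 at 21715711 to 22043658, called the low block here, held 21 genes over 328 kb. The high block on the same chromosome, at 23531044 to 23934913, held 26 genes over 404 kb. The cluster on chromosome 3, at 96219885 to 96270192, held 10 genes within 50.3 kb.

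Promoter sequences from RefSeq (GRCm38.p6, 250 bases before to 50 after a start) were found for 52 of the 57 genes. The 5 below are the promoters of the highest-ranked genes with a peak in all 4 WT lists that have a sequence, 1 gene per shared peak (H3c6, H2ac15 and H2ac1), and of the genes with no peak in any list that have the most (H2ac19) and the fewest (H2bc3) CpG dinucleotides. They are shown because CpG count went with peaks over all protein-coding genes, as did GC content. CpG dinucleotides are in capitals.
H3c6: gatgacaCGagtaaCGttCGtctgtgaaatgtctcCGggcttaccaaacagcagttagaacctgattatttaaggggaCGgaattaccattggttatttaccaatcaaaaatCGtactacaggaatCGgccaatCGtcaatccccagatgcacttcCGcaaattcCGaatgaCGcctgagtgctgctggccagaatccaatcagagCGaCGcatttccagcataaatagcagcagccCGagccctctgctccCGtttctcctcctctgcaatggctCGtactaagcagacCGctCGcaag
H2ac15: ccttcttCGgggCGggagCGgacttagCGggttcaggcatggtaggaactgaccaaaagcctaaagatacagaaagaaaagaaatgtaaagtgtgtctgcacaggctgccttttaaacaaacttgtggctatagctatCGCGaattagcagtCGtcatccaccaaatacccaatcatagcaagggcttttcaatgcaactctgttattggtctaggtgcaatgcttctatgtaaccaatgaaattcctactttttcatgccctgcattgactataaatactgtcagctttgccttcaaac
H2ac1: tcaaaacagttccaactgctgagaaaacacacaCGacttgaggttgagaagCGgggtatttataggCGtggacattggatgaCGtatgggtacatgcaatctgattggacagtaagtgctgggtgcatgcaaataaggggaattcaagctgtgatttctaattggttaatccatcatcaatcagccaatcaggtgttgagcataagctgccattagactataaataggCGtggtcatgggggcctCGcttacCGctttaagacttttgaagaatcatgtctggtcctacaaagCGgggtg
H2ac19: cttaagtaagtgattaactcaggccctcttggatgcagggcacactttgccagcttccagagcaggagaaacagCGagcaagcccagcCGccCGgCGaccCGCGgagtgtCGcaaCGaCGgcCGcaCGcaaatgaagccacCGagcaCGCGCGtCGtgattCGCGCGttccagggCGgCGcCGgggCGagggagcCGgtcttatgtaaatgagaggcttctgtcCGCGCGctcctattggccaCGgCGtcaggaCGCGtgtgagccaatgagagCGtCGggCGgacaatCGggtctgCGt
H2bc3: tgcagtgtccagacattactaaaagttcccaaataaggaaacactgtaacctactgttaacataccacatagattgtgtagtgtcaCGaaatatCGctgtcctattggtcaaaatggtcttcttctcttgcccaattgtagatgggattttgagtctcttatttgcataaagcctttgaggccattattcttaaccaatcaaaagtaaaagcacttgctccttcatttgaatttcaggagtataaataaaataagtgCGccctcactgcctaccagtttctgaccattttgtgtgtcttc
On the genome these are chr13:23562336-23562635 (minus strand, H3c6), chr13:21753863-21754162 (minus strand, H2ac15), chr13:23934187-23934486 (plus strand, H2ac1), chr3:96240325-96240624 (minus strand, H2ac19) and chr13:23746484-23746783 (plus strand, H2bc3). They hold 18, 7, 8, 36 and 3 CpGs, in that order.

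No histone gene of the set had a peak in K49A sperm, and between 8 and 19 of the 57 had one in each wild-type list. A gene counts here as having a peak if a peak overlaps 1 kb on either side of either of its annotated ends by at least 1 bp. The count was 0 in K49A 1 and 0 in K49A 2, against 8, 19, 18 and 19 genes in WT 1 to 4, so the genotypes did not overlap. Over all protein-coding genes 0.626% had a peak in at least 1 K49A list. In percent this is 0 and 0% in K49A and 28.1 ± 9.39% in WT (SD, n = 2 and 4, WT range 14.0 to 33.3%). Over all protein-coding genes the share was 0.429 and 0.334% in K49A 1 and 2, against 28.8, 43, 46.3 and 49.9% in WT 1 to 4 (difference -41.6 percentage points, two-sided exact permutation test over libraries with p = 0.133, which is the lowest value that 2 against 4 libraries allow). At the K49A shares a group of 57 genes would hold 0.245 and 0.190 genes with a peak, so the empty K49A lists are near the background and are no result about histone genes. In WT the histone genes were below all genes in each of the 4 libraries, with 14.0% against 28.8%, 33.3% against 43%, 31.6% against 46.3% and 33.3% against 49.9%. The windows are part of this comparison: the median histone gene was 487 bp long, so its windows joined into 2.49 kb, against 4.002 kb for the median protein-coding gene. In a group chosen after the values were seen, the 742 other genes of up to 1 kb that are not olfactory receptor genes, the share was 0 and 0% in K49A and 2.29, 7.14, 7.82 and 8.09% in WT 1 to 4. The histone genes were above these short genes in each WT library, and window size was not tested as a source of the difference from all genes.

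**Figure D1:**
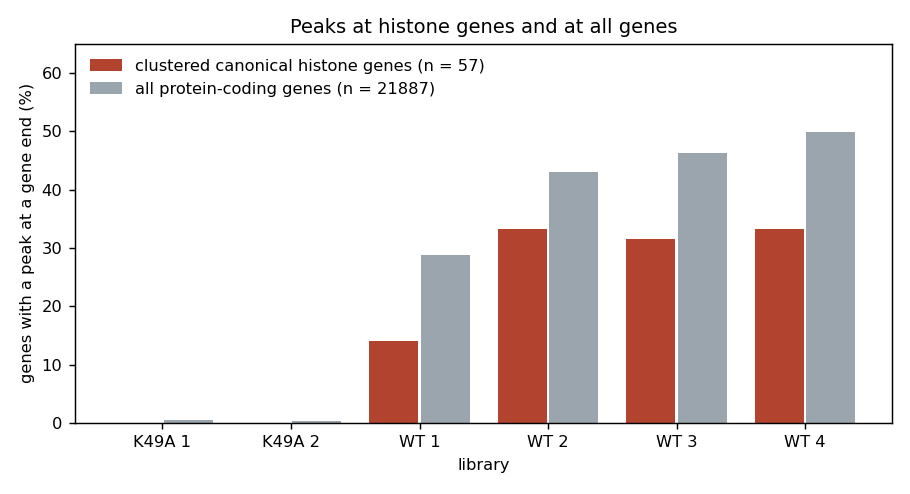
Share of genes with a peak at a gene end (percent) in each library, for the 57 clustered canonical histone genes (red bars) and all 21887 protein-coding genes (grey bars). No red bar rises above 0 in K49A 1 and 2, and in each of WT 1 to 4 the red bar, at 14.0 to 33.3%, is lower than the grey one.

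Of the 57 genes, 6 were called in all 4 WT lists and 30 in none. Without WT 1, 11 were called in all 3 remaining WT lists. The 6 became 2 when a peak had to overlap the gene itself, and 0 when a −log10 q from 2 up or a −log10 p from 5 up was required. The genes in all 4 WT and no K49A list made up 10.5% of the set, where the class holds 21.8% of all protein-coding genes. Genes with no peak in any WT list made up 52.6%, against 40.2% of all genes. Between these classes stood 9 genes called in 1 WT list, 5 in 2 and 7 in 3, where such classes hold 11.3, 11.1 and 15.3% of all genes. The share with a peak in at least 1 WT list was 47.4%, against 59.8% of all genes. A peak here is a property of the whole sperm sample: a nucleosome kept strongly by few sperm and one kept weakly by many cannot be told apart.

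**Figure D2:**
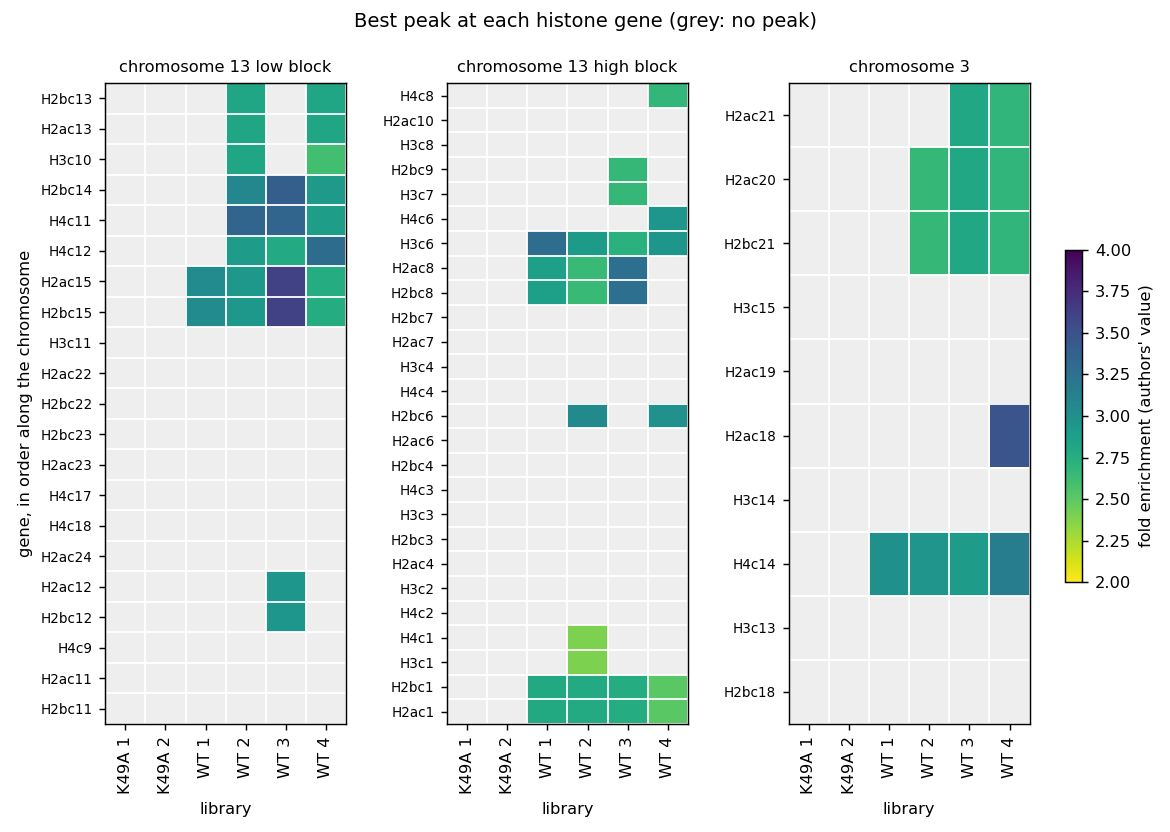
Authors' fold enrichment of the best peak (colour scale) at each of the 57 histone genes, in chromosomal order down the page, with K49A 1 and 2 left of WT 1 to 4. Grey cells have no peak: both K49A columns are grey throughout, and 6 genes are coloured in all 4 WT columns.

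H4c14, an H4 gene in the chromosome 3 cluster (96262934 to 96263317), ranked first among the 6. It had no peak in K49A 1 or 2, and the authors' fold over local background was 3.00, 2.96, 2.89 and 3.16 in WT 1 to 4, or 3.00 ± 0.112 (SD, n = 4). Its peaks were also the widest of the set in each WT list, at 1091, 2042, 1607 and 1015 bp for a gene of 384 bp, and 623 bases were covered in all 4 WT lists (96262846 to 96263468). WT 4 had a further peak of 232 bp to the low side of the gene.

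H3c6, an H3 gene in the high block of chromosome 13 (23561475 to 23562385), had no peak in K49A 1 or 2 and folds of 3.28, 2.91, 2.72 and 2.95 in WT 1 to 4, or 2.97 ± 0.235 (SD, n = 4). In all 4 WT lists the peak lay over the first part of the gene, and 277 bases were common to them (23562080 to 23562356). H4c14 and H3c6 were the 2 histone genes at which the same bases were called in all 4 WT libraries.

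The other 4 genes called in all 4 WT lists are divergent pairs that shared each of their peaks, and in neither pair did the 4 lists have a base in common. H2ac15 (21753377 to 21753912) and H2bc15 (21754076 to 21754553), in the low block of chromosome 13, had no peak in K49A 1 or 2 and folds of 3.03, 2.93, 3.61 and 2.76 in WT 1 to 4, or 3.08 ± 0.369 (SD, n = 4). The WT 2 peak, of 1089 bp, ran over the shared promoter printed above and into both genes. Those of WT 3 and WT 4 lay on the H2ac15 side, and that of WT 1 lay over the far end of H2bc15. At most 3 lists covered the same base.

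The TH2A and TH2B genes were the other such pair. H2bc1, the TH2B gene (23933725 to 23934156), and H2ac1, the TH2A gene (23934437 to 23934913), had no peak in K49A 1 or 2, and folds of 2.78, 2.78, 2.76 and 2.52 in WT 1 to 4, or 2.71 ± 0.129 (SD, n = 4). The best WT 2 peak (23933370 to 23933694) lay just beyond H2bc1 and the WT 3 peak (23933439 to 23934088) over it. The WT 1 peak (23934252 to 23934671) ran over the start of H2ac1, the WT 4 peak (23934534 to 23934997) over its body, and WT 2 had a second peak there (23934477 to 23934712). The −log10 q of the best peak was 1.34, 2.34, 2.02 and 1.53 in WT 1 to 4, where each list ends at about 1. The calls of WT 1 and WT 4 were weak, at percentiles 14.1 and 16.9 of −log10 q within their own lists. Those of WT 2 and WT 3 stood at percentiles 66.6 and 44.4.

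**Figure D3:**
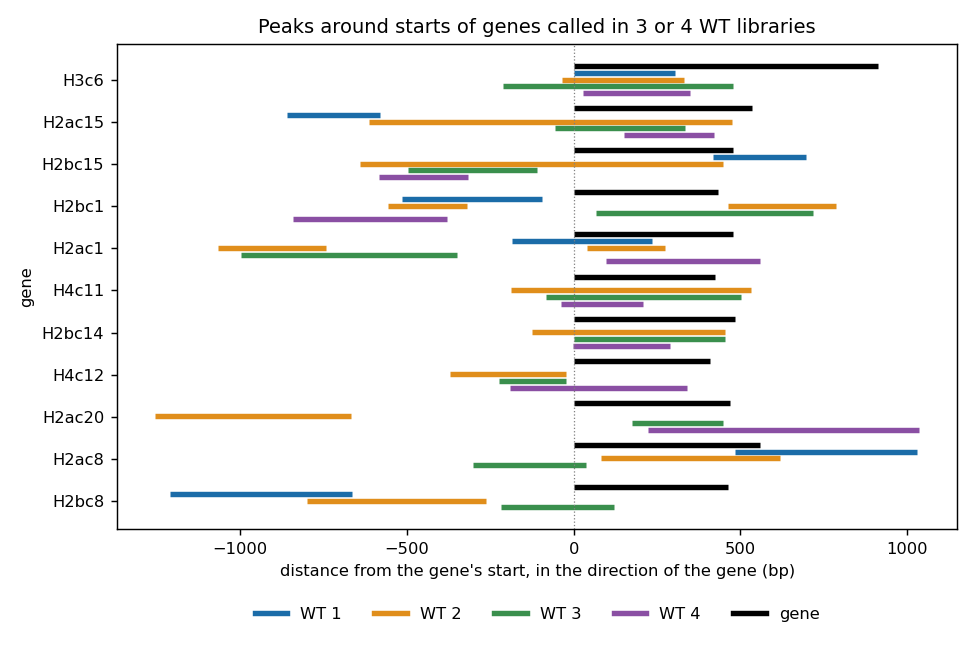
Peaks (coloured bars, 1 colour per WT library) relative to the start of each histone gene called in 3 or 4 WT lists that has a start in the promoter table, with distance from the start in bp along the direction of the gene on the x axis and the gene itself as a black bar. H3c6, H4c11 and H2bc14 have peaks that lie over one another across libraries, while those at H2ac1 and H2bc1 lie on both sides of the start. No gene has a K49A peak to draw.

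Among the 7 genes called in 3 WT lists, 5 lacked the call in WT 1 and 2 in WT 4. H2bc14, H4c11 and H4c12 are neighbours in the low block of chromosome 13 and each had peaks of its own, which at H4c12 lay upstream of the gene in WT 2 and WT 3. H4c11, an H4 gene, had folds of 3.35, 3.35 and 2.88 in WT 2, 3 and 4, and H2bc14, an H2B gene, 3.07, 3.40 and 2.92. In each of these 3 genes the lists of WT 2, 3 and 4 shared bases, over 291 bp at H2bc14, 247 bp at H4c11 and 168 bp at H4c12. H2ac20 and H2bc21 on chromosome 3, which encode H2A and H2B, shared peaks with a mean fold of 2.72 ± 0.0706 (SD, n = 3), in 2 of the 3 lists also with H2ac21. The pair H2ac8 and H2bc8 was called in WT 1, 2 and 3 with folds of 2.87, 2.65 and 3.27. Its calls in WT 1 and WT 2 were weak, with a −log10 q of 1.05 and 1.34. At this pair and at H2ac20 and H2bc21, at most 2 lists covered the same base.

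Counts of genes overstated the number of separate events, since neighbours shared peaks. K49A lists had 0 separate peaks at the set and WT lists had 5, 14, 11 and 15 (WT 1 to 4). Of these 45 WT peaks, 24 were at 1 gene of the set, 17 at 2 and 4 at 3. A gene of the set was itself overlapped by 36 of them, and 9 lay only in a flank. At H2bc6, whose annotation spans 37455 bp, both calls (WT 2 and WT 4) rested on a peak over the neighbouring linker histone gene H1f4, and H3c1 had in WT 2 a second peak that was also at the end of H1f1, another linker histone gene.

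The wild-type peaks at histone genes were weaker and narrower than those at gene ends in general. The median fold was 3.00, 2.86, 2.89 and 2.88 at the set in WT 1 to 4, against 3.25, 2.96, 2.99 and 2.97 over all peaks at gene ends. Median widths were 420, 558.5, 455 and 348 bp at the set, against 490, 687, 686 and 588 bp. The median −log10 q was 1.53, 2.06, 2.05 and 1.97 at the set, against 2.25, 2.15, 2.36 and 2.66. In all 3 measures the set was lower in each of the 4 WT lists. Folds and q-values are the authors' own for each peak, relative to its own library, so a mean over lists is a description only. All peaks at the set lay between folds of 2.39 and 3.61 and had a highest −log10 p of 6.85.

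The genotypes' lists also reach down to different limits. The K49A lists end at a −log10 p of 4.73 (K49A 1) and 4.55 (K49A 2), while the WT lists end between 3.32 and 3.75. Of the 45 WT peaks at the set, 21 reached the K49A 1 limit, namely 1 of 5, 8 of 14, 6 of 11 and 6 of 15 in WT 1 to 4. With a −log10 p of at least 5 required in every list, K49A had 0 and 0 genes of the set and WT 1, 5, 7 and 4, or 1.75, 8.77, 12.3 and 7.02%. Over all genes the shares at that limit were 0.388 and 0.311% in K49A and 18.01, 21.7, 26.2 and 31.6% in WT 1 to 4. With 700 peaks per list, the length of the shortest list, no histone gene had a peak in any of the 6 libraries. The part of the list limits in the difference at these genes was not tested.

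The 3 clusters had similar shares. K49A lists had 0 genes with a peak in each of them. The mean WT share was 29.8 ± 13.7% in the low block of chromosome 13 (2, 8, 7 and 8 of 21 genes in WT 1 to 4), 25 ± 4.97% in the high block (5, 8, 7 and 6 of 26) and 32.5 ± 17.1% on chromosome 3 (1, 3, 4 and 5 of 10; SD, n = 4 each), so the clusters differed by less than the spread between WT libraries in the low block and on chromosome 3. WT 1 was lowest in each of the 3. By histone, H2B genes had a WT share of 35.9 ± 11.8%, H2A genes 29.4 ± 8.32%, H4 genes 27.1 ± 14.2% and H3 genes 16.7 ± 6.80% (SD, n = 4 each). H2B genes had a peak at 3, 7, 7 and 6 of 16 genes in WT 1 to 4 and H2A genes at 3, 5, 6 and 6 of 17. The counts were thus equal in WT 1 and WT 4. The H2B counts of WT 2 and WT 4 include H2bc6, whose peaks lay over H1f4. H4 genes, with 1, 4, 3 and 5 of 12, changed place between libraries. All these differences rest on few genes. H3 genes were the lowest in WT 2, 3 and 4, with 3, 2 and 2 of 12, and in WT 1 they tied with H4 genes at 1 of 12.

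Within the chromosome 13 blocks the genes with no peak stood together. In the low block, 8 neighbours from H3c11 to H2ac24 (21782915 to 21833475) had no peak in any list, and no peak of any of the 6 lists fell anywhere in those 50.6 kb. In the high block the 8 genes from H2ac6 to H4c2 (23683473 to 23757386, 73.9 kb) also had none, although that stretch held 0, 1, 2 and 1 peaks in WT 1 to 4. Those peaks lay near genes of other kinds there: H1f2, a linker histone gene, was called in 2 WT lists, and H1f6, the gene of the testis linker histone H1t, and Hfe, a regulator of iron uptake, in 1 each. Shorter runs were H2bc7, H2ac7, H3c4 and H4c4 in the high block and H4c9, H2ac11 and H2bc11 in the low block. Just 1 K49A peak lay within the span of a cluster, in K49A 1 at 21995111 to 21995809 of chromosome 13 (fold 3.18), 6367 bp from Prss16 and 39.3 kb from the nearest histone gene, and it overlapped a peak in each of the 4 WT lists.

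Near-identical copies were frequent in the first of these stretches. A promoter was scored by the share of its 50-base words that recur, on either strand, in a promoter elsewhere in the RefSeq table. The share was at least 50% for 9 of the 52 genes with a sequence, and 8 of these 9 had no peak in any list. They were H2bc23, H2ac23, H4c17, H4c18 and H2ac24 in the stretch from H3c11 to H2ac24, with 100, 86.9, 94.0, 94.0 and 73.3% of words, and H3c14, H3c15 and H2ac19 on chromosome 3, with 74.1, 74.1 and 67.7%. The ninth, H2ac18, the copy of H2ac19, was called in WT 4 alone (fold 3.47). Sequencing reads that lie wholly within copied bases cannot be assigned with certainty, and no source used here says how the authors treated them. The absence of peaks at the 8 genes, and the single call at H2ac18, are therefore uncertain. Part of the words of most of these promoters was not copied, and the part of copying in the missing peaks was not tested. None of the genes from H2ac6 to H4c2 with a sequence had a copied promoter by this score. The score covers promoter bases only, and copying within the gene bodies was not examined. Without the 9 genes the WT mean share was 32.8% of 48 genes.

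Promoter CpG counts did not rank with peaks among histone genes as they did among all genes. For the histone genes the median count in 300 bases was 7 for genes called in all 4 WT lists (range 3 to 18, 5 genes), 10 for 1 to 3 lists (7 to 41, 18 genes) and 12 for none (3 to 36, 29 genes). Over all protein-coding genes with a promoter sequence it was 25, 18 and 3 in the same classes. Without copied promoters the histone genes with no peak had a median of 9. Of the 5 promoters printed above, those of H3c6, H2ac15 and H2ac1, called in all 4 WT lists, had 18, 7 and 8 CpGs, and those of H2ac19, which is copied, and H2bc3, with no peak, had 36 and 3. Median GC content was 45, 44 and 45.7% for histone genes called in all 4, in 1 to 3 and in no WT lists, and 65.3, 59.3 and 48% for all protein-coding genes in these classes. The set as a whole had a median of 10.5 CpGs, against 13 for all protein-coding genes. This is a description across genes, which are not independent, and paired genes share promoter bases.

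**Figure D4:**
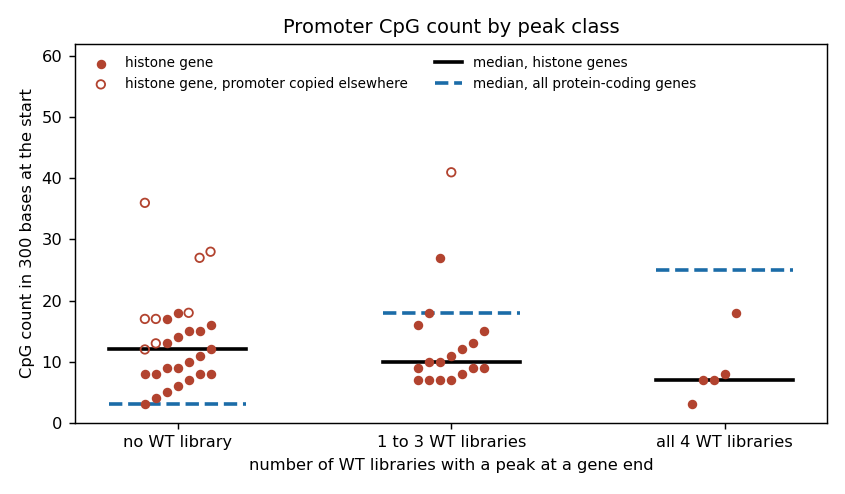
CpG count in the 300 promoter bases (y axis) of histone genes called in no, 1 to 3 or all 4 WT lists (points; open points have at least 50% of their 50-base words copied elsewhere), with the median of the histone genes (black) and of all protein-coding genes (blue, dashed). The black medians are 12, 10 and 7, and the blue ones 3, 18 and 25.

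Letters known from histone promoters were frequent in the set. TATAAA was found on either strand in 30 of 52 promoters (57.7%), against 13.6% of all 32851 promoters in the table. CCAAT was found in 44 of 52 (84.6%), against 37.4%, and by histone in 17 of 17 H2A, 14 of 14 H2B, 10 of 10 H3 and 3 of 11 H4 genes. ATTTGCAT, the octamer of H2B promoters, was found in 12 of 52 (23.1%), against 1.74%, namely in 6 of 17 H2A and 6 of 14 H2B genes and in none of the H3 and H4 genes. Of the 5 genes with a sequence called in all 4 WT lists, TATAAA was in 4 and CCAAT in 5, and of the 29 with no peak they were in 14 and 25. Without copied promoters they were in 12 and 19 of the 21 with no peak. The 5 genes include the pairs H2ac15 with H2bc15 and H2ac1 with H2bc1. The promoter bases of each pair overlap, so the same letters can count for both genes.

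Histone genes outside the set were counted beside the shares of all genes, 0.429 and 0.334% in K49A 1 and 2 and 28.8, 43, 46.3 and 49.9% in WT 1 to 4, and no difference between these lists and the set was tested. Of 10 linker histone H1 genes, 0 had a peak in K49A 1 or 2 and 3, 8, 9 and 6 in WT 1 to 4, a WT mean of 65 ± 26.5% (SD, n = 4), and the count of 3 in WT 1 is near the share of all genes. The 6 that stand inside the chromosome 13 blocks, among the core histone genes, had 0 and 0 in K49A and 1, 5, 6 and 3 in WT. H1f4 was the one of these 6 called in all 4 WT lists, with folds of 3.01, 3.05, 2.69 and 2.99. Among 16 core histone genes and variants not covered by the symbol rule, 0 had a peak in either K49A list and 8, 10, 10 and 8 in WT 1 to 4 (56.2 ± 7.22%, SD, n = 4), and the count of 8 in WT 4 is near the share of all genes. Called in all 4 WT lists were 5 of the 16, beside 21.8% of all genes called in all WT and no K49A lists. They were H2az1 and H2az2, which encode the variant H2A.Z, Macroh2a1 and Macroh2a2, which encode macroH2A, and H3f3a. H3f3a is one of the genes of the replacement histone H3.3. H2az1 had folds of 4.93, 3.40, 3.42 and 3.49 in WT 1 to 4, each above the fold of H4c14 in the same list. The highest folds of the set were 3.28, 3.35, 3.61 and 3.47 in WT 1 to 4, so in WT 3 H2az1 was below the highest. H3f3b, the other H3.3 gene, had no peak. Of the 16, 4 carry older cluster symbols: H2aw and H2bu2 on chromosome 11 were called in 3 and 1 WT lists, and H4f16 on chromosome 6 and H4bc24 in none.

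The last list held genes of the machinery that makes histone transcripts and handles histones. Of these 25 genes, 0 had a peak in K49A 1 or 2 and 8, 16, 17 and 22 in WT 1 to 4, or 63.0 ± 23.2% (SD, n = 4), beside 28.8, 43, 46.3 and 49.9% of all genes. In WT 1 the count was 8 of 25, near the share of all genes. Called in all 4 WT lists were 6 of 25, also near the share of that class, with no K49A call, over all genes (21.8%). The 6 called in all 4 WT lists were Npat, the co-activator of histone gene transcription, with a mean fold of 3.06 ± 0.137, Lsm11, part of the U7 particle that cleaves histone transcripts, with 3.61 ± 0.439, Eri1, an exonuclease that trims their stem-loop, with 3.15 ± 0.421, the histone chaperones Asf1a, with 3.33 ± 0.251, and Hira, with 3.08 ± 0.234, and Pou2f1, which binds the octamer, with 3.46 ± 0.560 (SD, n = 4 each). Slbp, the stem-loop binding protein, and Casp8ap2, a factor of histone transcript processing, were called in 3 WT lists each, and Lsm10 and Nasp in none.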

How the data were processed

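MNase-seq libraries of sperm from K49A (n = 2) and wild-type (n = 4) mice were analysed from the authors' deposited peak lists. Mononucleosomal DNA was cut from a gel and sequenced with molecular identifiers, per the labels' protocols. The submitters' processing notes name FastQC, BWA, Picard, SAMtools, MACS2 and the build mm10, with 1 deposited list per library. No source used here gives versions, settings, the use of the identifiers or any control. For each peak the deposited lists give a ratio (fold enrichment), −log10 p, −log10 q and a score that was not used. Each list ends at a −log10 q of about 1. No counts are given, so the depth is unknown. The lists held 700 and 1017 peaks in K49A and 11313 to 27903 in WT.

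Genotypes come from the labels and replicate numbers from the titles. Whether libraries of a genotype come from separate animals is stated only as biological replicates, so a p-value refers to the spread among these libraries, which may be technical. Genes, ends and promoters are from RefSeq tables of GRCm38.p6, the assembly that mm10 names. Overlaps were computed with pandas 2.3.3 and numpy 2.4.6 and tested on simulated peaks. A gene's best peak is that with the highest −log10 q, ranked by its percentile within its own list. All genes were compared between genotypes with a two-sided exact permutation test. The set has no test of its own, because the genes and lists were chosen with earlier results of these data known. Named with values were the genes called in all WT lists and their partners, in order of mean percentile, and genes with any K49A peak, of which there were 0. Genes called in 3 WT lists, runs of genes, copied promoters and common bases were described after their values were seen. H1f9 and H3f5 were in the planned lists but matched no gene of the table. Alternatives were other windows, overlaps and thresholds, equal list lengths, each library left out and pairing by number.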

Additional observations from a re-analysis of the deposited data

Results flagged for a closer look

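In 19 sets of 4 WT values examined for a library far from the others, 4 values were marked. Chance marks about 1 set in 20 where sets are independent. These sets are not, since the low block is part of the 57 genes and several sets divide the same genes, so the 4 marks cannot be set against that rate. WT 1 had a peak at 14.0% of the 57 histone genes, against 31.6 to 33.3% in the other WT libraries, and at 9.52% of the low block of chromosome 13, against 33.3 to 38.1%. WT 1 also had the shortest WT list, with 11313 peaks, and a share of 28.8% over all genes was not marked. The part of list length in the low WT 1 values was not tested.

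At the pair H2bc1 and H2ac1 the best peak of WT 4 had a fold of 2.52, against 2.76 to 2.78 in the other WT libraries. Both genes share that peak, so the 2 marks are 1 observation.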

How the results depend on the processing

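No alternative gave a K49A peak at a histone gene, and none turned the direction of a difference, though with 700 peaks per list there was none left at the set. For the 57 genes this outcome was fixed in advance. The K49A peak nearest to any of them lay 39.3 kb away, beyond every window used, and stricter limits only remove peaks. The mean WT share of 28.1% (K49A minus WT -28.1 percentage points) became 17.1% (-17.1) when the peak had to overlap the gene itself, 13.2% (-13.2) under a stricter q limit (−log10 q from 2 up), 7.46% (-7.46) under a common p limit (−log10 p from 5 up), and 0% (0) with 700 peaks per list. The number of genes called in all WT and no K49A lists, 6, became 2 with overlap of the gene itself, 0 under the q limit, 0 under the p limit and 0 with 700 peaks per list, where all 57 genes had no peak. Separate peaks per WT list, 11.2 on average, became 5.75 under the q limit, 3.5 under the p limit and 0 with 700 peaks per list. Over all genes the difference of -41.6 percentage points was -47.3 with overlap of the gene itself, -27.4 under the q limit, -24 under the p limit and -1.47 with 700 peaks per list. The last 3 settings use fewer peaks by construction. For overlap of the gene itself, the median gene was 487 bp long in the set and 17169 bp over all genes. Leaving out each library gave a WT share of 26.3 to 32.7%, 6 to 11 genes called in all remaining WT and no K49A lists (11 without WT 1), and 30 to 34 genes called nowhere. Windows of 500 bp and 2 kb gave 24.6 and 31.1%. Adding the 4 genes with older cluster symbols (61 genes) gave 27.9%, and leaving out copied promoters 32.8%, both chosen after seeing the data. The CpG difference between genes called in all and in no WT lists, -5, was -4.5 with 2 kb and -2 without copied promoters, and could not be had under the q limit, where no gene was called in all WT lists.

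Libraries 1 and 2 of the genotypes share a number in their titles only. The names of the deposited lists and the titles disagree on which K49A and WT libraries belong together, so pairing by number is uncertain. With the replicate block the WT share was 23.7% (difference -23.7 percentage points), with 8 genes called in both WT and no K49A lists, and over all genes the difference was -35.5 percentage points (exact permutation within numbers, two-sided p = 0.5, the smallest possible). Deviations of same-numbered libraries had a correlation of -0.00147 over 21887 genes. K49A 1 and K49A 2 called 94 and 73 of these genes, so they did not differ at nearly all of them. The correlation therefore cannot show whether the libraries are paired. Depth is unknown, so a histone gene with no peak is one not detectable in that list.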
